A study of Homo sapiens with 19 samples.

Results

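The response of WiDr cells to the arginine methyltransferase inhibitor GSK715 was set against that of HCT116 cells, gene by gene. HCT116 and WiDr are established human colorectal carcinoma lines. Cells of each line were kept for 96 h with 5 µM GSK715 (also GSK3368715, labelled a PRMT1 inhibitor) or with its solvent DMSO, and poly(A) RNA was sequenced as short paired ends, in 3 libraries per group. These 12 libraries, of 19 in the study, were compared over the 60259 gene IDs that the count tables of both lines hold, of 84354 IDs in any table. The 4 ONT libraries of WiDr (Oxford Nanopore full-length cDNA, DMSO and GSK715, 2 each, same dose and time) served as another reading of the WiDr response. Nothing in the labels says that the libraries of a group came from separate cultures, so the p-values measure only the spread between these libraries, which may be technical. Each line was read at 1 dose and 1 time, and what belongs to a line's genotype cannot be told apart from how its cells were grown.

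PRMT1 and the other type I enzymes transfer methyl groups to arginine and leave asymmetric dimethylarginine, mostly in RNA-binding proteins and in histone H4. PRMT5 is the main enzyme of the symmetric mark. Among the programmes followed here, the integrated stress response raises translation of the transcription factor ATF4, which drives genes of amino acid synthesis, amino acid transport and transfer RNA charging. The unfolded protein response drives the chaperones of the endoplasmic reticulum (ER), and the MAPK cascade drives immediate early factors together with its own phosphatase brakes.

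A response is the log2 fold change (log2FC) of GSK715 against DMSO in one line, and the difference is the response of WiDr minus that of HCT116. A difference below 0 thus means that the gene moved lower in WiDr than in HCT116. Levels are counts per 1000000 (CPM) after TMM scaling of all 12 libraries together, and a call is an adjusted p under 0.05 in edgeR's quasi-likelihood test. Genes with a called difference were sorted into those called in both lines with unlike signs (opposite), those called in one line only, and those called in both with the same sign. Library totals were 64558688 to 66915779 counts in HCT116 and 59612948 to 82390261 in WiDr. Of 10 markers of colorectal epithelium, 6 or 7 reached 1 CPM in the HCT116 groups and 8 or 9 in those of WiDr. The summed level of 21 stromal, endothelial and immune markers was 65.3 to 68.6 CPM with DMSO and 111 to 122 CPM with GSK715 in HCT116, and 1213 to 1263 and 3016 to 3167 CPM in WiDr. LYZ, which epithelial cells also make, carried most of the WiDr sum (1201 and 3051 CPM), while PTPRC, which defines leukocytes, had a mean of at most 0.113 CPM in any group. Myeloid markers did rise in WiDr, where CD14 had means of 7.92 and 20.8 CPM and CD68 of 9.80 and 23.9 CPM. In HCT116 CD68 rose, with means of 37.0 and 82.4 CPM. CD14 (0.205 and 0.072 CPM) and LYZ (0.100 and 0 CPM) were near the floor there and did not rise. The part of other cell types in the results was not tested.

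Of 21791 genes tested, the difference was called in 10187 (46.7%), and in 4864 of them (22.3%) it was at least 2-fold. The difference was above 0 in 5058 genes (23.2%) and below 0 in 5129 (23.5%). Where only library totals set the scale, the split was 7321 above and 3203 below. That scaling moved the median difference of all genes from 0.12 to 0.47. The composition factors of the libraries went opposite ways, from 1.07 with DMSO to between 0.899 and 0.918 with GSK715 in HCT116, and from between 0.963 and 0.979 to between 1.05 and 1.06 in WiDr. The median difference of a gene list is therefore followed by the same value less the median of all genes tested. Of those 21791 genes, 9793 reached 5 CPM in each line. In 5 equal bins of exonic length among them, the median difference went from -0.38 (shortest) to 0.07 (longest). Only the last was above 0. For lists of well expressed genes, the subtraction can thus overstate how far they lie below their peers. Over all genes tested, 23.1% rose and 20% fell in HCT116, and 26.4% rose and 26.1% fell in WiDr, and the counts of list members below are to be read beside these shares. They include many genes of low level, which were called less often. Among the 9793 genes, the difference was called in 73.1%. Of them, 16.8% rose in HCT116 and fell in WiDr, and 5.24% did the reverse. For lists of well expressed genes, counts of called differences and of opposite members are to be read beside these higher shares. At the threshold, MPZL1 (difference 0.15) and BOLA2B (-0.56) lay just inside, and LAMP1 (-0.15) and PIEZO1 (-0.19) just outside.

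Opposite responses took both forms. In 1747 genes (8.02% of those tested) the gene rose in HCT116 and fell in WiDr, and in 784 (3.6%) it rose in WiDr and fell in HCT116. Which form was the larger depended on the scaling: with library totals these counts were 841 and 1699. WiDr alone was called in 1897 genes that rose (8.71%) and 1383 that fell (6.35%), and HCT116 alone in 762 that rose (3.5%) and 1000 that fell (4.59%). A further 2329 genes (10.7%) moved the same way by unequal amounts. Not every silent line was shown to be flat: the 95% interval of the silent line lay within 1.5-fold of no change for 821 of the 1897, 1043 of the 1383, 635 of the 762 and 537 of the 1000 genes. In 470 of the genes that rose in WiDr only and 134 of those that fell, HCT116 expressed the gene at under 1 CPM. WiDr did so in 59 of the genes that rose in HCT116 only and 238 of those that fell. Among the 9793 genes of at least 5 CPM in each line, 7162 (73.1%) had a called difference. At that level the opposite genes were 5.24% (rise in WiDr) and 16.8% (rise in HCT116), those of WiDr only 7.3% (up) and 10.3% (down), those of HCT116 only 6.26% (up) and 5.3% (down), and 21.4% moved the same way, while 0.5% had a called difference with no call in either line (1.31% of all genes tested). Spearman's rho between the responses of the lines was 0.248 over these 9793 genes. This correlation is across genes of the same 12 libraries and is given as a description.

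**Figure D1:**
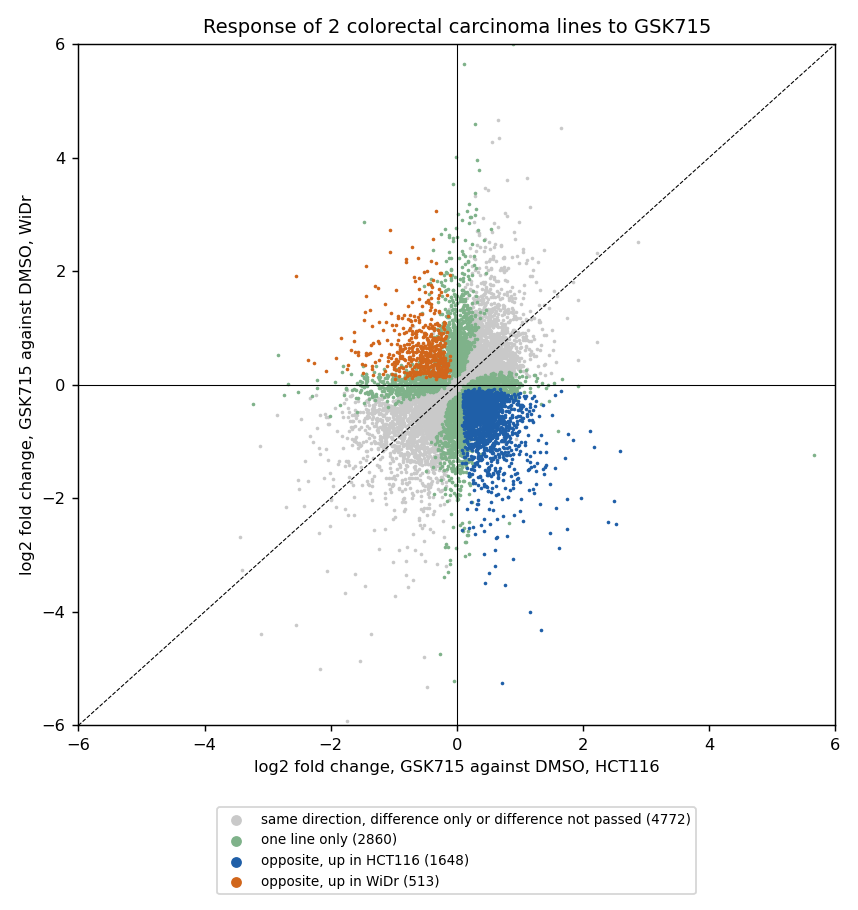
Each point is one of the 9793 genes of at least 5 CPM in each line; the x axis is the log2 fold change of GSK715 against DMSO in HCT116 and the y axis that in WiDr, with 1 gene beyond the limits of 6 drawn at the edge. The lower right quadrant holds 1648 genes that rose in HCT116 and fell in WiDr, and the upper left 513 genes with the reverse pattern.

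Most listed targets of ATF4 and of amino acid shortage rose in HCT116 and fell in WiDr. All 35 genes of the list were tested. In HCT116 26 of them rose and 3 fell, and in WiDr 1 rose and 30 fell. The difference was called below 0 in 32 and above 0 in 1, and 23 were opposite. The median response was 0.64 in HCT116 and -1.57 in WiDr, and the median difference was -2.0, against 0.12 over all genes tested (-2.12 less that median). With library totals the opposite members were 20 of 35.

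Before treatment these genes stood higher in WiDr. With DMSO, all 29 members of at least 5 CPM in each line had a higher mean in WiDr than in HCT116, where 5298 of the 9793 genes at that level (54.1%) did. With GSK715, 15 of the 29 were still higher in WiDr, as were 4737 of the 9793. The distance between the lines became smaller in 24 of the 29, against 4574 of the 9793 genes (46.7%), and the median log2 ratio of WiDr to HCT116 went from 2.70 with DMSO to 0.21 with GSK715. The distance with DMSO and the responses share the DMSO libraries, so they are not separate evidence.

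The promoters of CHAC1 and ASNS are shown because both genes responded in opposite directions and hold the motif searched for ATF4. CHAC1 encodes an enzyme that degrades glutathione, and ASNS asparagine synthetase. The 250 bases before the RefSeq start (GRCh38.p14) are given 5′ to 3′ on the gene's strand, with capitals at matches to TGATGNAA, the composite element of ATF4 and C/EBP factors, on either strand. The CHAC1 promoter is chr15:40953221-40953470 (plus strand), and that of ASNS chr7:97872409-97872658 (minus strand).
CHAC1: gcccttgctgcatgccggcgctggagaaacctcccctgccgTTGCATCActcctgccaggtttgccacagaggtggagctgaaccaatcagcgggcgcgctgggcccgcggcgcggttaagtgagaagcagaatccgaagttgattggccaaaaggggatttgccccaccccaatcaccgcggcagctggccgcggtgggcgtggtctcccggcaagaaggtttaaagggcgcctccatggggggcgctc
ASNS: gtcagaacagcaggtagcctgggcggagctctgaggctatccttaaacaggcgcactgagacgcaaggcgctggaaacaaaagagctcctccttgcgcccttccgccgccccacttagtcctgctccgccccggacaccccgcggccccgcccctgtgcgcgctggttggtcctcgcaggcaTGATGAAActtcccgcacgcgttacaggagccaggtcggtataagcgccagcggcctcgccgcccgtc
The match begins 209 bases before the start in CHAC1 and 68 bases before it in ASNS. Of 23 opposite members, 21 matched a gene in the promoter table by symbol, and 4 of the 21 (AARS1, ASNS, ATF3 and CHAC1) held the motif, as did 0 of 8 other members of the list and 870 of 27305 promoters (3.19%), taking the first start listed for each gene. A match is a description of letters and no evidence of binding, and its absence says only that these letters are not in the window.

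CHAC1 stood at 3.19, 2.91 and 3.25 CPM with DMSO and at 16.5, 16.9 and 15.8 CPM with GSK715 in HCT116. In WiDr it stood at 185, 178 and 171 CPM with DMSO and at 33.1, 32.2 and 34.3 CPM with GSK715. The groups of each line did not overlap, and the WiDr libraries stayed above those of HCT116 under both conditions. The response was 2.39 in HCT116 and -2.42 in WiDr, a difference of -4.81 ± 0.07 (approximate SE, adjusted p = 5.2e-14).

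ASNS went from 228, 229 and 229 CPM to 657, 633 and 622 CPM in HCT116. In WiDr it went from 1048, 1039 and 1056 CPM to 167, 174 and 175 CPM, which lies below the treated HCT116 libraries. The order of the lines was thus reversed by treatment, with a difference of -4.08 ± 0.04 (adjusted p = 9.1e-16). ASNS shares exonic bases with another gene and is uncertain to that extent.

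ATF3, a stress-induced transcription factor, stood at 59.8, 62.1 and 60.2 CPM with DMSO and 208, 204 and 201 CPM with GSK715 in HCT116, and at 110, 117 and 113 CPM and then 17.6, 19.6 and 21.3 CPM in WiDr. Neither line had overlapping groups, and the difference was -4.29 ± 0.08 (adjusted p = 2.7e-13). TRIB3, a pseudokinase that restrains ATF4, had responses of 1.31 and -2.10 (difference -3.41). SESN2, a leucine sensor upstream of mTORC1, had responses of 1.62 and -2.87 (difference -4.49). SLC7A11, the cystine transporter subunit, fell in both lines, by 1.01 and by 1.76 on the log2 scale.

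The transcript of ATF4 itself followed a different course. It went from 268, 279 and 276 CPM to 530, 526 and 521 CPM in HCT116, without overlap. In WiDr it stood at 688, 699 and 669 CPM with DMSO and at 716, 733 and 696 CPM with GSK715, where the groups overlapped. The response was 0.94 ± 0.03 in HCT116 and 0.06 ± 0.03 in WiDr (adjusted p = 0.084), and the difference -0.88 ± 0.04 (adjusted p = 8.4e-10). The WiDr value depended on the scaling: it was a called rise of 0.11 with RLE size factors and with DESeq2, and of 0.18 with library totals. In none of these did the ATF4 transcript fall in WiDr as most listed targets did. ATF4 protein was not measured.

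In the ONT libraries of WiDr, where 1397 of 15877 genes tested were called (8.8%), 681 having risen (4.29%) and 716 fallen (4.51%), 30 members of the list were tested. Of these 13 fell and 1 rose, with a median of -0.37. CHAC1 fell by 0.61 (adjusted p = 0.02), TRIB3 by 0.48 (adjusted p = 0.032), and ASNS had a log2FC of -0.39 that was not called (adjusted p = 0.15). Both readings put most members below 0, and the ONT values were closer to 0.

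**Figure D2:**
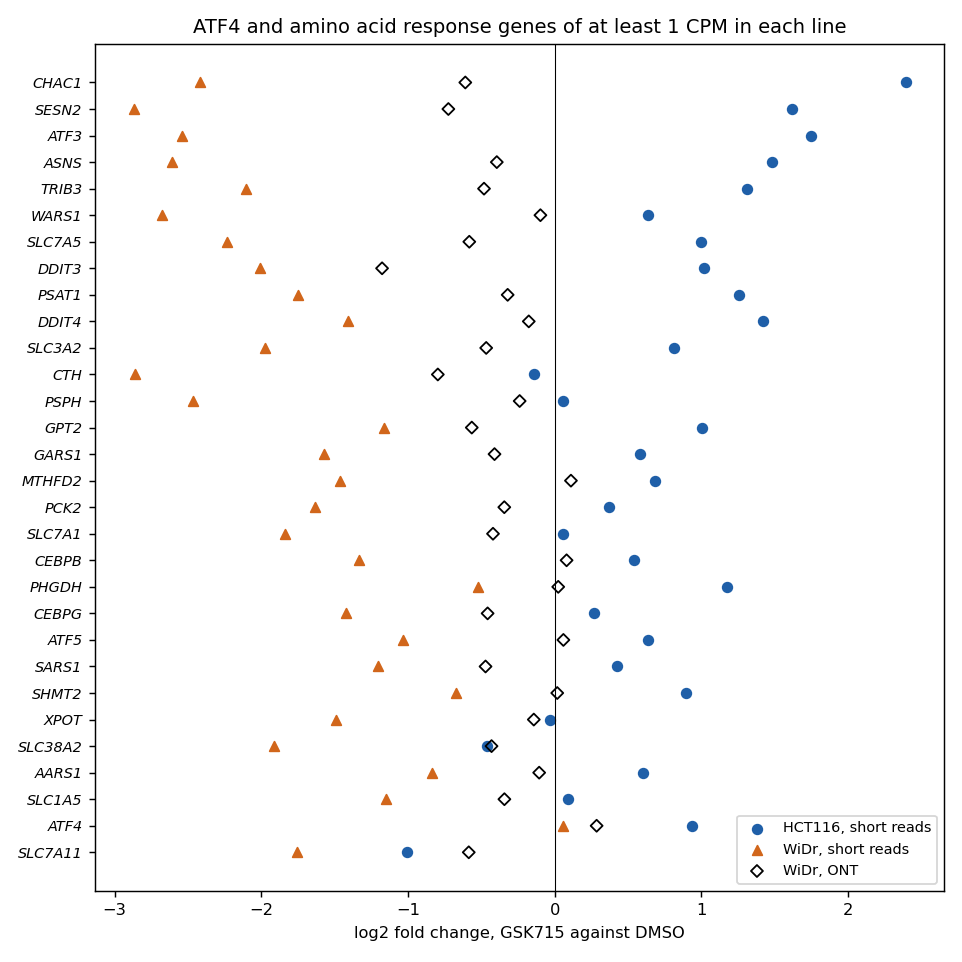
The 30 listed ATF4 and amino acid response genes of at least 1 CPM in each line, ordered by their difference; the x axis is the log2 fold change of GSK715 against DMSO in HCT116 short reads (circles), WiDr short reads (triangles) and WiDr ONT (open diamonds, 29 genes). CHAC1 lies at 2.39 in HCT116 and at -2.42 in WiDr, while ATF4 lies at 0.94 and 0.06.

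ER chaperones and genes of the unfolded protein response also parted. Of 27 genes tested (28 listed), 20 rose in HCT116, and 2 rose and 19 fell in WiDr. WiDr moved lower in 23, the difference was not called in 4, and 14 were opposite. The medians were 0.40 in HCT116, -0.41 in WiDr and -0.84 for the difference (-0.97 less that of all genes). With library totals, 9 were opposite with the rise in HCT116 and 1 with the rise in WiDr, and 6 fell in HCT116.

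The promoters of HSPA5 and HSP90B1 are shown because they hold the ER stress element and both chaperones moved apart. The 250 bases before the RefSeq start (GRCh38.p14) are given 5′ to 3′ on the gene's strand, with capitals at matches to CCAAT followed by CCACG after a spacer of 9 bases, on either strand. The HSPA5 promoter is chr9:125241344-125241593 (minus strand), and that of HSP90B1 chr12:103930160-103930409 (plus strand).
HSPA5: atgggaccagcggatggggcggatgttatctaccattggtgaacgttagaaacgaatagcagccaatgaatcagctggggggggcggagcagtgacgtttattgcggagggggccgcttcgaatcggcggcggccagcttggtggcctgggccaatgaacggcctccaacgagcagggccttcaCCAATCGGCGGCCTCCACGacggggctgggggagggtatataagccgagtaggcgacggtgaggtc
HSP90B1: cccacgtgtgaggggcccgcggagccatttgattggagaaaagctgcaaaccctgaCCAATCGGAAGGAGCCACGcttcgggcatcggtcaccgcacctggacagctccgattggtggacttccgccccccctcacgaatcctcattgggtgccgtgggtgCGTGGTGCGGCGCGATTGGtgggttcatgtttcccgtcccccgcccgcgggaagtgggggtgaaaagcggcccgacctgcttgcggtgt
HSPA5 has 1 match, which begins 66 bases before the start, and HSP90B1 has 2, at 194 and 89 bases. The element was found in 22 of 27305 promoters (0.0806%), in 4 of the 12 opposite members with a promoter in the table (CANX, HSP90B1, HSPA5 and XBP1) and in 2 of 13 other members (CALR and CRELD2). CALR and CRELD2 had no called difference in the fit with TMM scaling.

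HSPA5 encodes BiP, the main ER chaperone and sensor of misfolded protein. Its level was 2056, 2047 and 2043 CPM with DMSO and 7383, 7353 and 7266 CPM with GSK715 in HCT116. In WiDr it was 1592, 1594 and 1638 CPM with DMSO and 822, 813 and 815 CPM with GSK715. HSPA5 rose by 1.84 ± 0.02 in HCT116 and fell by 0.98 in WiDr, with a difference of -2.82 ± 0.02 (adjusted p = 3.3e-16), and no library of one group reached the range of the other.

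HSP90B1, the ER form of the HSP90 chaperone, went from 1501, 1507 and 1540 CPM to 1847, 2076 and 2060 CPM in HCT116, and from 1089, 1096 and 1122 CPM to 744, 728 and 733 CPM in WiDr. Both shifts cleared the spread of the libraries, with a difference of -0.98 ± 0.05 (adjusted p = 4e-09). HYOU1, another chaperone of the ER lumen, had responses of 0.79 and -0.93 (difference -1.71). HERPUD1, which serves the removal of misfolded ER proteins, had responses of 1.55 and -0.18 (-0.06 and not called with library totals; difference -1.73).

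CALR, the chaperone calreticulin, shared the ER stress element but not the pattern. It went from 577, 597 and 577 CPM to 1139, 1091 and 1069 CPM in HCT116 and from 321, 326 and 318 CPM to 642, 627 and 619 CPM in WiDr, close to 2-fold in both. Its difference was 0.05 ± 0.04 and was not called (adjusted p = 0.29). It was called at 0.10 with DESeq2 and with each line fitted alone, and at 0.41 with library totals. In ONT, 5 of 27 members tested fell, with a median of -0.21, HSPA5 at -0.55 (adjusted p = 0.012) and CALR at -0.04 (adjusted p = 0.88).

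Most MAPK feedback genes and targets fell in WiDr, and most rose in HCT116. All 25 listed genes were tested. In HCT116 15 rose and 7 fell, and in WiDr 1 rose and 20 fell. WiDr moved lower in 21 and not called in 4, and 13 were opposite. Medians were 0.38, -1.25 and, for the difference, -1.62 (-1.75 less that of all genes). With library totals 13 rose and 8 fell in HCT116, with a median of 0.14 there, and 11 were opposite. In ONT, 9 of 22 members tested fell, with a median of -0.41.

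FOSL1, a subunit of the transcription factor AP-1, went from 67.8, 68.5 and 70.4 CPM to 122, 118 and 112 CPM in HCT116. In WiDr it dropped from 81.2, 79.4 and 78.3 CPM to 7.02, 6.81 and 6.96 CPM. The lines were thus close with DMSO and far apart with GSK715, with a difference of -4.29 ± 0.06 (adjusted p = 3.2e-14), and FOSL1 also fell in ONT, by 1.70. DUSP6, the phosphatase of ERK, had responses of 0.56 and -1.71 (difference -2.27), and shares exonic bases with another gene. EPHA2, a receptor tyrosine kinase, had responses of 0.82 and -1.97 (difference -2.79). EGR1, an immediate early factor, fell in both, by 0.51 in HCT116 and by 3.11 in WiDr, where ONT gave a fall of 3.27. MYC, which belongs to this list and to that of Wnt targets, had responses of -0.13 and -2.03 (difference -1.90).

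The EGF receptor fell in both lines, while 3 of its ligands moved lower in WiDr than in HCT116. EGFR fell from 131, 129 and 131 CPM to 11.2, 11.6 and 13.9 CPM in HCT116, and from 105, 105 and 111 CPM to 11.4, 10.9 and 11.2 CPM in WiDr. All treated libraries lay far below all DMSO libraries, and the difference of 0.16 ± 0.09 was not called (adjusted p = 0.19, 95% interval -0.04 to 0.36). It was called at 0.20 with each line fitted alone and at 0.51 with library totals.

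The ligand AREG, amphiregulin, went from 397, 395 and 407 CPM to 286, 287 and 289 CPM in HCT116. In WiDr it went from 576, 588 and 609 CPM to 15.8, 14 and 14.4 CPM. Both lines lost AREG, WiDr far more, with a difference of -4.85 ± 0.06 (adjusted p = 7.3e-15). EREG, epiregulin, showed the same order with responses of -1.74 and -5.92 (difference -4.18). HBEGF, the heparin-binding ligand, had responses of 1.16 and -4.0 (difference -5.15).

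ERRFI1, which inhibits the EGF receptor and is itself induced by its signal, stood at 556, 563 and 561 CPM and then at 762, 775 and 762 CPM in HCT116, and at 1281, 1283 and 1318 CPM and then at 119, 114 and 113 CPM in WiDr. WiDr began above HCT116 and ended below it, with a difference of -3.94 ± 0.04 (adjusted p = 4.8e-16). Of the 15 genes of the receptor family and its ligands, the difference was below 0 in 6, above 0 in 2 and not called in 7. Their median difference was -0.29, and 0.07 with library totals; less that of all genes it was -0.41 and -0.40.

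CDKN1A, the cyclin-dependent kinase inhibitor p21, went from 257, 282 and 261 CPM to 408, 384 and 370 CPM in HCT116. In WiDr it went from 178, 176 and 179 CPM to 49.6, 48.3 and 46.9 CPM. The groups were apart in each line, and the difference was -2.42 ± 0.06 (adjusted p = 5.2e-12).

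GDF15, a secreted stress factor, had responses of 1.05 and -2.40 (difference -3.45), and GADD45A, a growth arrest gene, of 0.89 and -3.08 (difference -3.97). GADD45A is on the lists of p53 targets and of YAP targets, and GDF15 is on that of p53 targets, as is BTG2. GDF15 and GADD45A are also known to answer ATF4. BTG2, an antiproliferative gene, rose more in WiDr (2.46) than in HCT116 (0.32, and 0.09 and not called with library totals). Of 31 p53 targets tested (32 listed), the difference was below 0 in 17, above 0 in 7 and not called in 7. In HCT116 18 rose and 8 fell, and in WiDr 7 rose and 16 fell. The median difference was -0.64 (-0.77 less that of all genes). TP53INP1 had the highest difference of the list (3.40). With library totals the difference was below 0 in 15 and above 0 in 9.

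Of 22 YAP targets tested (23 listed), the difference was below 0 in 10 and above 0 in 6, and 7 rose in HCT116 and fell in WiDr. The median difference was -0.64 (-0.76 less that of all genes). CCN2, a matricellular protein and standard YAP readout, stood at 14.5, 17.4 and 15 CPM and then at 94.6, 92.4 and 83.6 CPM in HCT116, and at 36.7, 38.7 and 37.1 CPM and then at 6.64, 6.65 and 7.27 CPM in WiDr. All treated libraries of HCT116 lay above, and all treated libraries of WiDr below, every DMSO library of either line. Among opposite genes named by rule it ranked first (difference -4.98 ± 0.11, adjusted p = 1.1e-12). Its relative CCN1 had responses of 2.17 and -1.09 (difference -3.27). NT5E, an ectonucleotidase on the same list, fell in both, by 3.44 and by 2.68.

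Further genes that rose in HCT116 and fell in WiDr were named by the size of the smaller response. KRT80, a keratin, went from 7.38, 7.54 and 8.2 CPM to 43.5, 46.8 and 40.2 CPM in HCT116 and from 567, 561 and 551 CPM to 136, 137 and 134 CPM in WiDr. The WiDr libraries stayed above those of HCT116 throughout (difference -4.54 ± 0.07, adjusted p = 8.9e-14). UPP1, uridine phosphorylase, had responses of 1.97 and -2.0 (difference -3.97 ± 0.10), and DUSP1, a MAPK phosphatase, of 1.74 and -2.0 (difference -3.74 ± 0.09). KRT80 fell by 1.26 in ONT and DUSP1 by 0.83, both called, while UPP1 had a log2FC of -0.62 that was not called (adjusted p = 0.25).

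The reverse pattern, a rise in WiDr and a fall in HCT116, was led by smaller responses. MALAT1, a long noncoding RNA of nuclear speckles, stood at 50.7, 41.5 and 39.8 CPM and then at 13.6, 14.7 and 20 CPM in HCT116, and at 394, 416 and 419 CPM and then at 1198, 1225 and 1220 CPM in WiDr. The groups were apart in both lines, and the difference was 3.01 ± 0.16 (adjusted p = 5e-09). ONT also gave a rise of MALAT1 in WiDr, of 0.48. SESTD1, a phospholipid-binding protein, had responses of -1.43 and 2.09 (difference 3.52 ± 0.16).

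DEPTOR, an inhibitor of mTOR, went from 17.6, 18.3 and 17.3 CPM to 6.67, 6.21 and 6.47 CPM in HCT116 and from 10.9, 10.5 and 10 CPM to 26.2, 24.5 and 25.7 CPM in WiDr. The line with the higher level thus changed with treatment (difference 2.74 ± 0.11, adjusted p = 4.3e-10). BTNL9, a butyrophilin-like protein, MPP7, a scaffold of cell polarity, and EGLN3, a prolyl hydroxylase of the hypoxia factor, had differences of 2.94, 2.55 and 2.61. EGLN3 rose by 1.13 in WiDr short reads but fell by 0.70 in WiDr ONT (adjusted p = 0.00017), so the 2 readings of that line did not match for it.

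**Figure D3:**
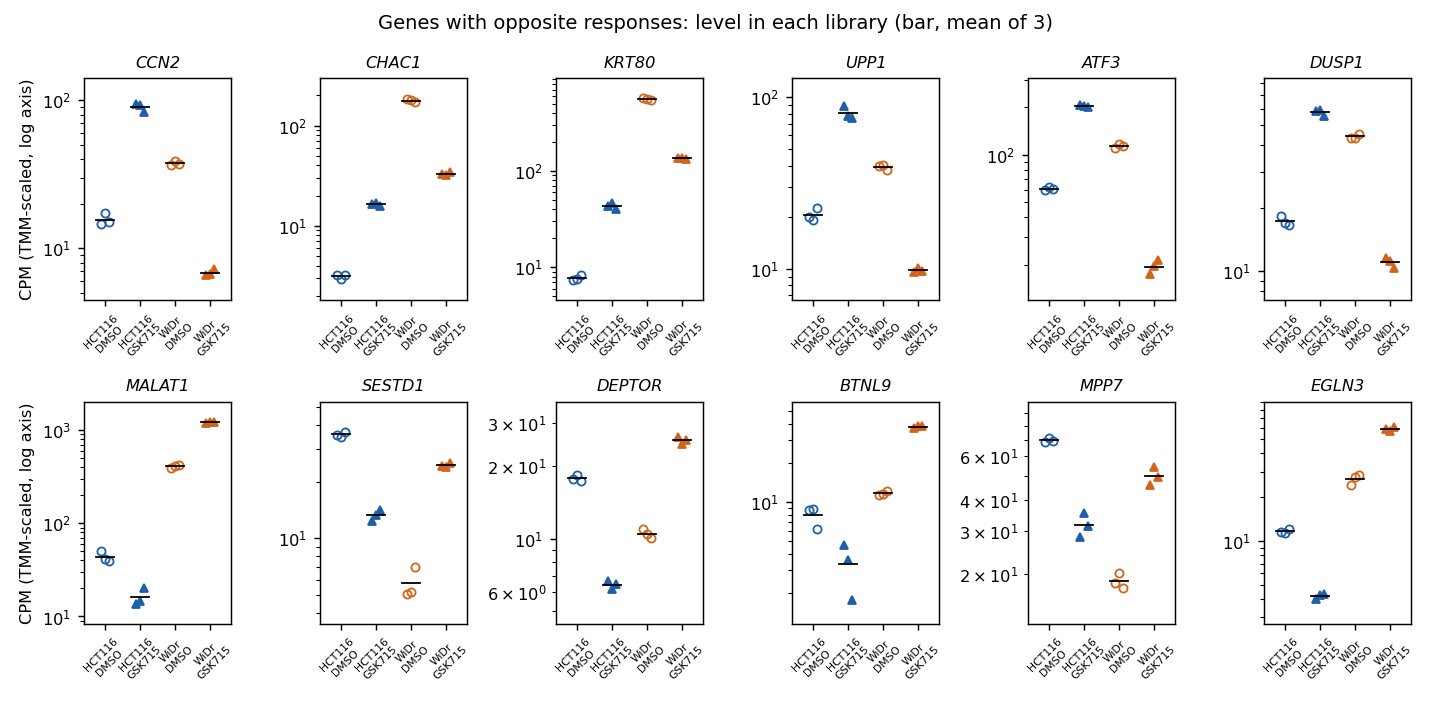
CPM of 12 genes with opposite responses in each library, on a log axis; circles are DMSO and triangles GSK715, blue HCT116 and orange WiDr, and the bar is the mean of 3 libraries. In the upper row the gene rose in HCT116 and fell in WiDr (CCN2, difference -4.98), and in the lower row the reverse (MALAT1, difference 3.01).

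Genes called in WiDr only included several that were almost silent in one WiDr group. CD109, a membrane glycoprotein that binds TGF-beta, stood at 80.6, 80.2 and 86.3 CPM and then at 83.4, 89.1 and 95.9 CPM in HCT116, where the groups overlapped. In WiDr it stood at 0.199, 0.352 and 0.658 CPM with DMSO and at 22.1, 21.6 and 19.9 CPM with GSK715. The response was 0.12 in HCT116 (adjusted p = 0.44) and 5.64 in WiDr, a difference of 5.52 ± 0.22. TNXB, a tenascin of the matrix, UAP1L1, a pyrophosphorylase-like protein, CCDC88B, a coiled-coil protein, and TGFBR3, the coreceptor betaglycan, rose in WiDr by 4.59, 4.01, 3.37 and 3.00, with differences of 4.31, 4.03, 3.08 and 2.99. Their responses in HCT116 lay between -0.01 and 0.29. HCT116 was called for TNXB with DESeq2 (0.29) and for UAP1L1 with library totals (-0.25).

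Among genes that fell in WiDr only, LAMP3, a lysosomal membrane protein, kept 12.1, 11 and 12.7 CPM with DMSO and 11.3, 11.5 and 11.8 CPM with GSK715 in HCT116. In WiDr LAMP3 went from 9.95, 9.52 and 10.4 CPM to 0.219, 0.176 and 0.412 CPM. The lines were near each other with DMSO only, and the difference was -5.16 ± 0.28. PDE9A, a phosphodiesterase of cyclic GMP, RPH3AL, a protein of vesicle exocytosis, EIPR1, a partner of endosomal tethering complexes, and NIBAN1, a stress-induced protein, fell in WiDr by 4.73, 2.98, 3.38 and 3.02, with differences of -4.46, -3.17, -3.17 and -3.15. PDE9A fell in ONT as well, by 2.0 (adjusted p = 0.00072). With library totals PDE9A and EIPR1 also fell in HCT116 (-0.51 and -0.44), and both were called there with each line fitted alone (-0.32 and -0.26).

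In HCT116 only, BBC3, which encodes the cell death protein PUMA, rose from 21.8, 21.7 and 20 CPM to 69.3, 60.5 and 55.6 CPM. In WiDr it stood at 47.5, 49.2 and 45.7 CPM and then at 47.8, 50.4 and 46.7 CPM, with overlap. The treated HCT116 libraries thus passed the level of WiDr (difference -1.52 ± 0.10). IRF7, a transcription factor of the interferon response, rose from 15.5, 16.3 and 17.1 CPM to 41.7, 41.7 and 41.1 CPM in HCT116, and in WiDr stood between 78.6 and 86.8 CPM in all 6 libraries (difference -1.32 ± 0.07), where library totals gave a called rise of 0.15. BANP, a chromatin protein, DDA1, a subunit of ubiquitin ligases, and ZFAND2B, a proteasome partner, rose in HCT116 by 1.67, 1.44 and 1.16, with differences of -1.56, -1.44 and -1.28. ONT disagreed with the silence of BANP in WiDr short reads (0.10) and gave 1.25 (adjusted p = 0.012), and DDA1 had -0.57 (adjusted p = 0.04).

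Genes that fell in HCT116 only were named with larger changes. KITLG, the ligand of the receptor KIT, went from 842, 784 and 848 CPM to 116, 142 and 128 CPM in HCT116, and stood at 53.7, 43.2 and 52.5 CPM and then at 50.8, 48.1 and 51.4 CPM in WiDr. Even the treated HCT116 libraries stayed above WiDr (difference 2.69 ± 0.12). ATRX, a chromatin remodeller encoded on chromosome X, went from 17.5, 17.4 and 17.7 CPM to 2.11, 2.24 and 3.51 CPM in HCT116 (difference 2.56 ± 0.16), against a response of -0.19 in WiDr. ITPR2, a calcium channel of the ER, PRKACB, a catalytic subunit of protein kinase A, and ARFIP1, an effector of ARF GTPases, fell in HCT116 by 3.24, 2.51 and 2.22, with differences of 2.89, 2.38 and 2.31. ITPR2 lay just outside the threshold in WiDr, with a response of -0.34 (adjusted p = 0.05) whose 95% interval did not include 0. It was called in WiDr with DESeq2 (-0.29) and with the line fitted alone (-0.35), as was ATRX in the latter (-0.19), and ARFIP1 was called in WiDr in 4 of the alternatives (0.09 to 0.21).

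**Figure D4:**
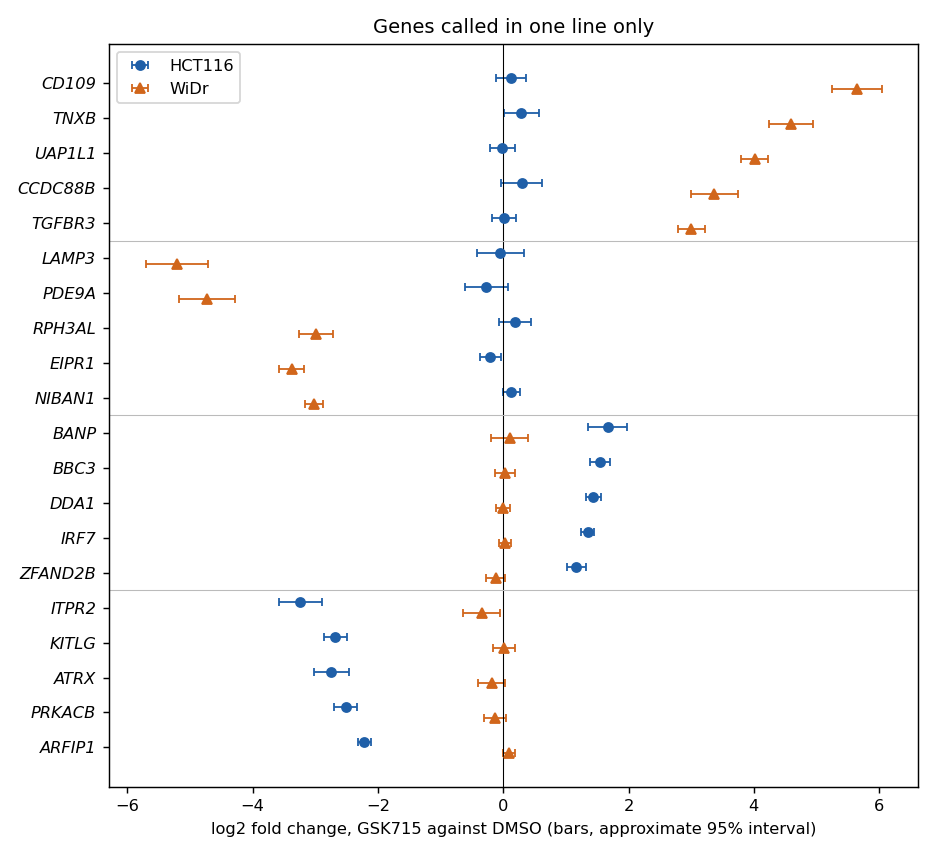
Log2 fold change of GSK715 against DMSO in HCT116 (blue circles) and WiDr (orange triangles) for 20 genes called in one line only, 5 in each of 4 blocks, with approximate 95% intervals as bars. CD109 lies at 0.12 in HCT116 and 5.64 in WiDr, and ITPR2 at -3.24 and -0.34.

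Most mitotic genes fell in HCT116, all those tested fell in WiDr, and most moved lower in WiDr. Of 36 tested, 23 fell and 3 rose in HCT116, and all 36 fell in WiDr. The difference was below 0 in 27 and above 0 in 3, and the medians were -0.37, -1.30 and -0.87 for the difference (-0.99 less that of all genes). KIF2C, a microtubule-depolymerising kinesin, kept 103, 101 and 98.1 CPM with DMSO and 111, 102 and 101 CPM with GSK715 in HCT116, and went from 115, 130 and 121 CPM to 40.3, 42.2 and 42.1 CPM in WiDr. It overlapped in HCT116, where it was called with library totals (-0.18), and not in WiDr (difference -1.61 ± 0.07). TPX2, a spindle assembly factor, had responses of -0.29 and -1.84 (difference -1.55). ECT2, the cytokinesis activator of RhoA, fell more in HCT116 (-1.05) than in WiDr (-0.37). In ONT 4 of 36 members fell. With library totals 8 members had a difference above 0.

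Ribosome biogenesis genes parted in the same direction. Of 28 tested, 13 fell and 8 rose in HCT116, and 27 fell and 1 rose in WiDr. Differences below 0 were called in 24 and above 0 in 1, with a median of -0.80 (-0.92 less that of all genes). RRP12, a ribosome export factor, went from 74.5, 84.8 and 79.5 CPM to 145, 138 and 128 CPM in HCT116 and from 138, 137 and 130 CPM to 67.5, 64.7 and 63.9 CPM in WiDr. The lines exchanged places (difference -1.83 ± 0.08). NOLC1, a nucleolar phosphoprotein, had responses of 0.24 and -1.07 (difference -1.31), and NAT10, an RNA acetyltransferase, of 0.29 and -0.92 (difference -1.21). With library totals the rises of NOLC1 and NAT10 in HCT116 (0.01 and 0.06) were not called, and 3 rather than 7 members were opposite. In ONT 1 of 26 rose and 1 fell, with a median of -0.09.

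Splicing factors, many of them substrates of arginine methylation, moved by smaller amounts. Of 34 genes of the snRNP and spliceosome core, 28 rose and 1 fell in HCT116, and 9 rose and 19 fell in WiDr. The difference was below 0 in 26 and above 0 in 3, with a median of -0.56 (-0.68 less that of all genes), and 16 rose in HCT116 and fell in WiDr. With library totals that count was 4, the difference was above 0 in 8, and 13 rose in HCT116. SNRPF, a Sm ring protein, had responses of 0.31 (0.08 and not called with library totals) and -1.11 (difference -1.43). SNRPB2, of the U2 particle, had responses of 0.42 and -0.67 (difference -1.10). SF3B1, the branch point factor, went the other way, with responses of -0.21 and 0.41 (difference 0.62).

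Of 38 SR and hnRNP proteins, 11 rose and 19 fell in HCT116 and 4 rose and 28 fell in WiDr. The difference was below 0 in 24 and above 0 in 7, with a median of -0.41. With library totals these were 17, 13 and -0.05, and the median less that of all genes was -0.53 and -0.52. HNRNPC, a packaging protein of nascent RNA, went from 1236, 1250 and 1220 CPM to 1852, 1750 and 1769 CPM in HCT116 and from 636, 653 and 636 CPM to 377, 373 and 363 CPM in WiDr, with no overlap. The difference was -1.32 ± 0.04 (adjusted p = 1.1e-11). HNRNPA2B1 had responses of 0.04 (-0.19 and called with library totals) and -0.75 (difference -0.79). SRSF5 fell by 0.74 in HCT116 and rose by 0.23 in WiDr (difference 0.97), while SRSF3 fell in both, by 1.42 and by 1.16. In ONT 3 of 37 rose and 4 fell, with SRSF5 at 0.66 and HNRNPC at 0.02.

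Among antioxidant genes driven by NRF2, the difference was below 0 in 14 of 23 and above 0 in 4, with a median of -0.75 (-0.87 less that of all genes). TXNRD1, thioredoxin reductase, stood at 929, 920 and 920 CPM and then at 1065, 1103 and 1084 CPM in HCT116, and fell from 2324, 2287 and 2389 CPM to 839, 827 and 830 CPM in WiDr. The WiDr level went from above to below that of HCT116 (difference -1.72 ± 0.03). The rise in HCT116 (0.23) was lost with library totals. SRXN1, sulfiredoxin, which shares exonic bases with another gene, had responses of 0.44 and -2.58 (difference -3.01). HMOX1, heme oxygenase, rose in both, by 0.62 in HCT116 and by 2.17 in WiDr. In ONT 3 of 21 rose and 3 fell. With library totals 7 members had a difference above 0.

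Interferon-stimulated genes moved in both directions. Of 38 tested (39 listed), the difference was below 0 in 21 and above 0 in 6, with a median of -0.63 (-0.76 less that of all genes), and 7 rose in HCT116 and fell in WiDr. With library totals these were 17, 9 and 3. ISG15, a ubiquitin-like modifier, went from 60.8, 59.6 and 53.6 CPM to 123, 114 and 111 CPM in HCT116 and from 97.5, 101 and 110 CPM to 81.7, 78.7 and 81.5 CPM in WiDr. The groups were apart in both lines (difference -1.35 ± 0.08). OASL had responses of 0.23 and -1.57 (difference -1.81), the first lost with library totals. PARP9 had the reverse responses of -1.08 and 0.55 (difference 1.62). In ONT 1 of 35 rose and 5 fell.

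All 13 mitochondrially encoded messages moved higher in WiDr than in HCT116. In HCT116 12 fell, and in WiDr 9 rose and 1 fell, so that 8 were opposite (10 with library totals). Their median difference was 0.96 (0.83 less that of all genes). MT-CO1, a subunit of cytochrome oxidase, went from 15536, 15503 and 13552 CPM to 9358, 8940 and 9381 CPM in HCT116 and from 13373, 14853 and 14852 CPM to 24137, 23512 and 21696 CPM in WiDr. The DMSO libraries of the lines overlapped and the treated ones did not (difference 1.37 ± 0.08, adjusted p = 9.8e-09). MT-CYB, cytochrome b, had responses of -0.97 and 0.11 (difference 1.08), and MT-ND1 the smallest difference (0.19), having fallen in both. The share of counts on mitochondrially encoded genes went from between 8.64% and 9.10% to between 5.09% and 5.42% in HCT116 and from between 6.09% and 6.51% to between 8.34% and 8.88% in WiDr. In ONT 6 of the 13 rose in WiDr, with a median of 0.28.

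Sterol genes parted less evenly. Of 26 genes of sterol synthesis and uptake, the difference was above 0 in 13 and below 0 in 7, with a median of 0.36 (0.23 less that of all genes, and 0.076 without WiDr DMSO replicate 2). INSIG1, which holds back the sterol sensor, stood at 58.1, 53.2 and 51.6 CPM and then at 60.3, 54 and 58 CPM in HCT116, and rose from 11.2, 8.72 and 8.37 CPM to 68.1, 70.6 and 71.6 CPM in WiDr. HCT116 overlapped and WiDr did not (difference 2.82 ± 0.13). CYP51A1, which demethylates lanosterol and shares exonic bases with another gene, had responses of 0.07 (-0.16 and called with library totals) and -1.52 (difference -1.59). In ONT 2 of 23 fell. With library totals 2 members had a difference below 0.

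Of 20 Wnt targets and crypt stem cell genes tested (23 listed), the difference was above 0 in 11 and below 0 in 7. Its median was 0.71 (0.58 less that of all genes). With each line fitted alone, 16 were tested, 9 were above 0 and 7 below, and the median was 0.48. Only 14 members reached 5 CPM in each line. Their median log2 ratio of WiDr to HCT116 went from 0.37 with DMSO to -0.27 with GSK715. Over all genes at that level it went from 0.11 to -0.05. PROM1, a membrane protein of crypt cells, went from 22.6, 20.4 and 18.6 CPM to 15.5, 15.5 and 16.5 CPM in HCT116 and from 47.1, 46.9 and 47.4 CPM to 275, 282 and 277 CPM in WiDr. Both lines moved without overlap, in opposite directions (difference 2.93 ± 0.08, adjusted p = 1.2e-11). BMP4, a morphogen, did likewise, with responses of -0.51 and 0.92 (difference 1.42). MYC and CCND1, members named by rule on the other side, moved lower in WiDr than in HCT116, with differences of -1.90 and -1.62. LGR5, the stem cell receptor on this list, had a mean under 1 CPM in all 4 groups. In ONT PROM1 had 0.69 (adjusted p = 0.071) and BMP4 0.29 (adjusted p = 0.057), neither called.

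Transcripts of the PRMT family moved in both directions. PRMT1, whose product GSK715 inhibits, stood at 229, 237 and 221 CPM and then at 342, 330 and 314 CPM in HCT116, and at 307, 310 and 309 CPM and then at 289, 287 and 280 CPM in WiDr. The rise in HCT116 (0.52 ± 0.04) cleared the spread, and the fall in WiDr (-0.11 ± 0.04) was 0.01 and not called with library totals. The difference was -0.63 ± 0.05 (adjusted p = 2.1e-07). These are messages of the inhibited enzyme and do not report its activity. PRMT5, which shares exonic bases with another gene, had responses of 0.30 (0.07 and not called with library totals) and -0.51 (difference -0.81). PRMT2 and PRMT7 moved higher in WiDr, with differences of 0.51 and 1.27. Of 13 members tested (14 listed), the difference was below 0 in 8 and above 0 in 4, with a median of -0.29, and 0.06 with library totals; less that of all genes it was -0.42 and -0.40.

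**Figure D5:**
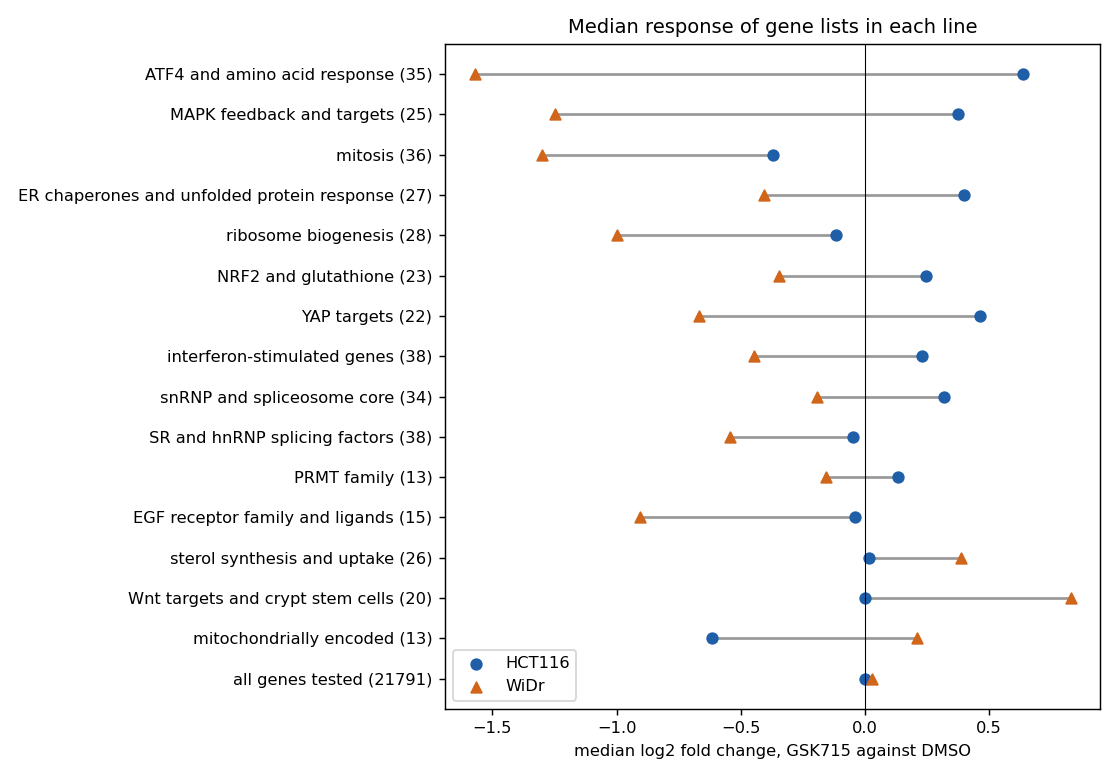
Median log2 fold change of GSK715 against DMSO in HCT116 (circles) and WiDr (triangles) for 15 gene lists, with the number of genes tested in parentheses, ordered by the median difference, and for all genes tested in the last row. The ATF4 list lies at 0.64 and -1.57, the mitochondrially encoded genes at -0.61 and 0.21, and all genes at 0.00 and 0.03.

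Transcript length and the ONT response, which played no part in sorting the genes, were read beside the classes. Among 9784 genes of at least 5 CPM in each line with a model in GENCODE 29, Spearman's rho of response with exonic length was -0.306 in HCT116 and -0.046 in WiDr, and 0.185 for the difference. From the shortest to the longest of 5 equal bins of length, the median response in HCT116 went from 0.29 to -0.17, and in WiDr from -0.06 to -0.17. These values are over genes of the same libraries, and what length stands for was not tested. Of genes opposite with the rise in HCT116, 1625 were tested in ONT. Of these 1063 (65.4%) had the sign of the WiDr short reads and 162 (9.97%) were called with it. For the reverse class these were 360 of 613 (58.7%) and 38 (6.20%). Over all 11450 genes tested in both, 7034 (61.4%) had the same sign and 837 (7.31%) were called with it. These classes were thus near the background. The median ONT log2FC of the 988 genes of the WiDr-only rises was 0.09, against 0.99 in their short reads.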

How the data were processed

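Short-read counts per gene for HCT116 and WiDr and estimated counts per gene for WiDr ONT were deposited by the authors as 1 table per line and platform, per the file headers. Cutadapt, HISAT2, StringTie, DESeq2, minimap2, Salmon and the build GRCh38 are listed in the submitters' processing notes; versions, annotation and use of strand are not given in the sources used here, so a gene and its antisense partner cannot be told apart. The WiDr columns marked NC, short-read and ONT alike, were read as DMSO, the only control those libraries had left.

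Gene symbols, exonic lengths and overlaps came from GENCODE 29. All 12 short-read libraries were fitted together with edgeR 4.0.16 (R 4.3.3; filterByExpr, minimum count 10; TMM; quasi-likelihood test; Benjamini-Hochberg adjustment over 21791 genes), with line, treatment and their interaction; ONT estimated counts were rounded and fitted alone. SEs are approximate, and intervals are 95%. The fit was tested on simulated data. Line and count table coincide, so they cannot be told apart.

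The genes and lists were chosen with earlier results of these data known. Genes were named by rule: of at least 5 CPM in each line and with no overlap between groups, the 6 opposite genes per orientation with the largest smaller response and the 5 per direction called in one line with the largest difference; from each list, the 2 per direction with the smallest adjusted p; and PRMT1 and PRMT5. Genes sharing at least 10% of exonic bases with another were passed over or called uncertain. Other list members named (among them ATF4, TRIB3, SESN2, SLC7A11, HERPUD1, HSP90B1, CALR, DUSP6, EGR1, EREG, HBEGF, EGFR, CDKN1A, CCN1, RRP12, SRSF3, MT-CO1, MT-ND1, HMOX1, ISG15, PARP9 and LGR5) were chosen after their values were seen. Alternatives were other scalings, filters and tools (DESeq2 1.42.0), a replicate block, each line alone and leaving out each library. Some items are not reported here.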

Additional observations from a re-analysis of the deposited data

Results flagged for a closer look

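The response to GSK715 differed between HCT116 and WiDr by the interaction term of edgeR's fit in 10187 genes, and each gene below had an adjusted p under 0.05 in that test. The value after each gene is the difference in log2FC, WiDr minus HCT116, and no explanation was weighed.

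Among stress genes these were CHAC1 (-4.81), ATF3 (-4.29), ASNS (-4.08), TRIB3 (-3.41), SESN2 (-4.49), ATF4 (-0.88), SLC7A11 (-0.75), HSPA5 (-2.82), HERPUD1 (-1.73), HSP90B1 (-0.98), HYOU1 (-1.71), TXNRD1 (-1.72), SRXN1 (-3.01) and HMOX1 (1.56). Among genes of MAPK signalling and the EGF receptor they were FOSL1 (-4.29), DUSP1 (-3.74), DUSP6 (-2.27), EPHA2 (-2.79), EGR1 (-2.60), MYC (-1.90), AREG (-4.85), EREG (-4.18), ERRFI1 (-3.94) and HBEGF (-5.15). Growth arrest genes, YAP targets and interferon-stimulated genes with a difference were CDKN1A (-2.42), GADD45A (-3.97), GDF15 (-3.45), BTG2 (2.14), CCN2 (-4.98), CCN1 (-3.27), NT5E (0.76), ISG15 (-1.35), OASL (-1.81) and PARP9 (1.62). In mitosis, ribosome biogenesis and RNA processing they were KIF2C (-1.61), TPX2 (-1.55), ECT2 (0.68), RRP12 (-1.83), NOLC1 (-1.31), NAT10 (-1.21), HNRNPC (-1.32), HNRNPA2B1 (-0.79), SRSF5 (0.97), SRSF3 (0.26), SNRPF (-1.43), SNRPB2 (-1.10) and SF3B1 (0.62).

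Mitochondrial and sterol genes with a difference were MT-CO1 (1.37), MT-CYB (1.08), MT-ND1 (0.19), INSIG1 (2.82) and CYP51A1 (-1.59). Wnt and PRMT genes with a difference were PROM1 (2.93), BMP4 (1.42), CCND1 (-1.62), PRMT1 (-0.63), PRMT5 (-0.81), PRMT2 (0.51) and PRMT7 (1.27). The other opposite genes named were KRT80 (-4.54), UPP1 (-3.97), MALAT1 (3.01), SESTD1 (3.52), DEPTOR (2.74), BTNL9 (2.94), MPP7 (2.55) and EGLN3 (2.61). Called in WiDr only were CD109 (5.52), TNXB (4.31), UAP1L1 (4.03), CCDC88B (3.08), TGFBR3 (2.99), LAMP3 (-5.16), PDE9A (-4.46), RPH3AL (-3.17), EIPR1 (-3.17) and NIBAN1 (-3.15). Called in HCT116 only were BANP (-1.56), BBC3 (-1.52), DDA1 (-1.44), IRF7 (-1.32), ZFAND2B (-1.28), ITPR2 (2.89), KITLG (2.69), ATRX (2.56), PRKACB (2.38) and ARFIP1 (2.31).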

How the results depend on the processing

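The count of 10187 differing genes kept its size under the alternatives run, except 5205 when a difference had to exceed 1.5-fold (glmTreat). Its share of the genes tested did change with the filter. It was 10187 of 21791 in the main fit, 8818 of 12218 with at least 1 CPM in each line, and 9558 of 36149 with no count filter. With library totals the genes lower in WiDr were 3203, the opposite genes 841 (rise in HCT116) and 1699 (rise in WiDr), and those of HCT116 only 384 up and 1528 down. With at least 1 CPM in each line, 3240 genes differed 2-fold. With the silent line's interval within 1.5-fold, 821 rose in WiDr only and 537 fell in HCT116 only. The cause was not tested.

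List medians less that of all genes moved as follows. With at least 1 CPM in each line they were -1.59 (EGF receptor), -0.74 (ER), -1.59 (MAPK), -0.58 (NRF2), -0.19 (PRMT), -0.31 (SR and hnRNP), -0.39 (YAP), -0.45 (interferon), 1.06 (mitochondrial), -0.77 (mitosis), -0.70 (ribosome) and -0.46 (snRNP). With each line fitted alone they were -2.02 (ATF4), -0.86 (ER) and -0.43 (SR and hnRNP). With no count filter they were -2.24 (ATF4), -1.09 (ER), -1.87 (MAPK), -1.0 (NRF2), -0.65 (SR and hnRNP), 0.71 (mitochondrial), -1.04 (ribosome) and -0.81 (snRNP). Leaving out each library in turn gave -2.25 to -2.07 (ATF4), -1.90 to -1.72 (MAPK), -0.99 to -0.61 (NRF2) and 0.076 to 0.25 (sterol).

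Called in ONT with the sign of the short reads were 92 (8.84%) and 66 (6.68%) genes of WiDr only, down and up. Opposite genes so called were 162 and 38, with the rise in HCT116 and in WiDr. Over all genes tested in both readings, 837 of 11450 (7.31%) were so called. In the same order the class counts were 24, 15, 31 and 11 with DESeq2 and 20, 13, 25 and 6 with no count filter. Without each ONT library in turn they were 37 to 68, 17 to 44, 57 to 132 and 11 to 31; the lone library is then assumed to vary like the other group.

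Same-numbered libraries did not deviate together in every pair (correlations from -0.089 to 0.067). Those of unlike number had correlations from -0.109 to 0.103. Whether the former share more than a number cannot be told from so few libraries. With the replicate block 9789 genes differed (4782 higher and 5007 lower in WiDr). The ONT libraries held 1449574 to 1667667 counts each, with 2 per group; what this does to the calls there was not tested.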
